A study of Mus musculus with 18 samples.

Results

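The SLAM receptors and the SAP-family adaptors were described as a set of 9 genes in M12-5B3 mouse B lymphoma cells. The adaptors were *Sh2d1b1*, *Sh2d1b2* and *Sh2d1a*. The receptors were *Slamf1*, *Slamf6*, *Slamf7*, *Cd48*, *Cd84* and *Ly9*. Each gene was read from transcript clusters whose annotation names that gene alone, chosen by the highest mean over the 18 arrays. Each of the 9 genes had exactly 1 such cluster, so no choice between clusters arose. They are 9 of 30098 genes with a cluster of their own. The family was taken up with the low *Sh2d1b1* signal of the USF-depleted line already known. The difference between the lines in *Sh2d1b1* and its paralog *Sh2d1b2* is therefore given as a description, with no test.

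SLAM receptors are immunoglobulin-superfamily proteins on blood cells, and most of them bind themselves on a neighbouring cell. *Cd48* encodes a lipid-anchored member without a cytoplasmic tail that serves as a ligand for CD244 and CD2. The receptors with cytoplasmic tyrosine motifs bind small SH2 adaptors. SAP, encoded by *Sh2d1a*, links them to the kinase FYN, and human SAP is mutated in X-linked lymphoproliferative disease. EAT2, encoded by *Sh2d1b1*, and ERT, encoded in rodents by *Sh2d1b2*, are best known from natural killer cells, where EAT2 couples receptors such as SLAMF7 to phospholipase C gamma. Where the adaptors are missing, the receptors can recruit the phosphatases SHP1, SHP2 and SHIP1.

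M12-5B3 is a p53-deficient germinal centre B lymphoma line with inducible RAG transgenes, kept silent with tetracycline in every group. USFKD cells carried lentiviral shRNAs against *Usf1* and *Usf2*, the genes of the upstream stimulatory factors. Cells labelled Control carried a scrambled shRNA and are called sshRNA. Both were puromycin-resistant clones, so every comparison of lines is between a single pair of lines. The 6 groups were USFKD no IR, USFKD 1d IR, USFKD 7d IR, sshRNA no IR, sshRNA 1d IR and sshRNA 7d IR, with 3 arrays each, where IR is a single 5 Gy dose of cobalt-60 radiation and 1d and 7d are the days of recovery. Each line has a single untreated group, so time in culture cannot be told apart from irradiation. The 3 replicates of a group are described as independent, but nothing says whether they came from separate irradiations, and p-values measure only the spread between these samples.

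All values are log2 signals after robust multi-array averaging (RMA). Because 1339 rows hold a value above 16, the step from scan to value is not fully known, and every fold is a fold on the deposited scale. A transcript was called differentially expressed where limma's moderated test, run over all 72688 rows of the arrays, gave an adjusted p under 0.05 and the fold exceeded 1.5. A dim limit of 4.66 was set from 1717 genes of olfactory and vomeronasal receptors, at the 95th percentile of their means. Of the 9 genes, 6 lay above it in every group, *Slamf1* in 2 of 6 groups, and *Sh2d1a* and *Cd84* in none. The arrays within a group correlated at 0.992 to 0.997. The 6 arrays from 7 days stood apart from the rest in 4 hybridisation spikes, whose mean was 11.4 to 11.8 against 10.6 to 11.1 on the other 12 arrays. *Usf2* averaged 6.89 ± 0.14 in USFKD no IR and 9.04 ± 0.33 in sshRNA no IR (SD, n = 3 each), a difference of -2.15 ± 0.16 (SE, limma adjusted p = 6.35e-07). Its other cluster differed by -1.32 ± 0.11 (limma adjusted p = 2.12e-06). In sshRNA both *Usf2* clusters were called higher at 7 days, by 0.90 ± 0.16 and 0.61 ± 0.11 (limma adjusted p = 5.41e-04 and 5.88e-04). The line differences in *Usf2* were then -3.39 ± 0.16 and -1.98 ± 0.11, so this gap was not constant over the 3 times. *Usf1* averaged 5.17 ± 0.05 in USFKD no IR and 5.24 ± 0.04 in sshRNA no IR, and the cluster did not show the knockdown (-0.07 ± 0.08, limma adjusted p = 0.799).

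**Figure D1:**
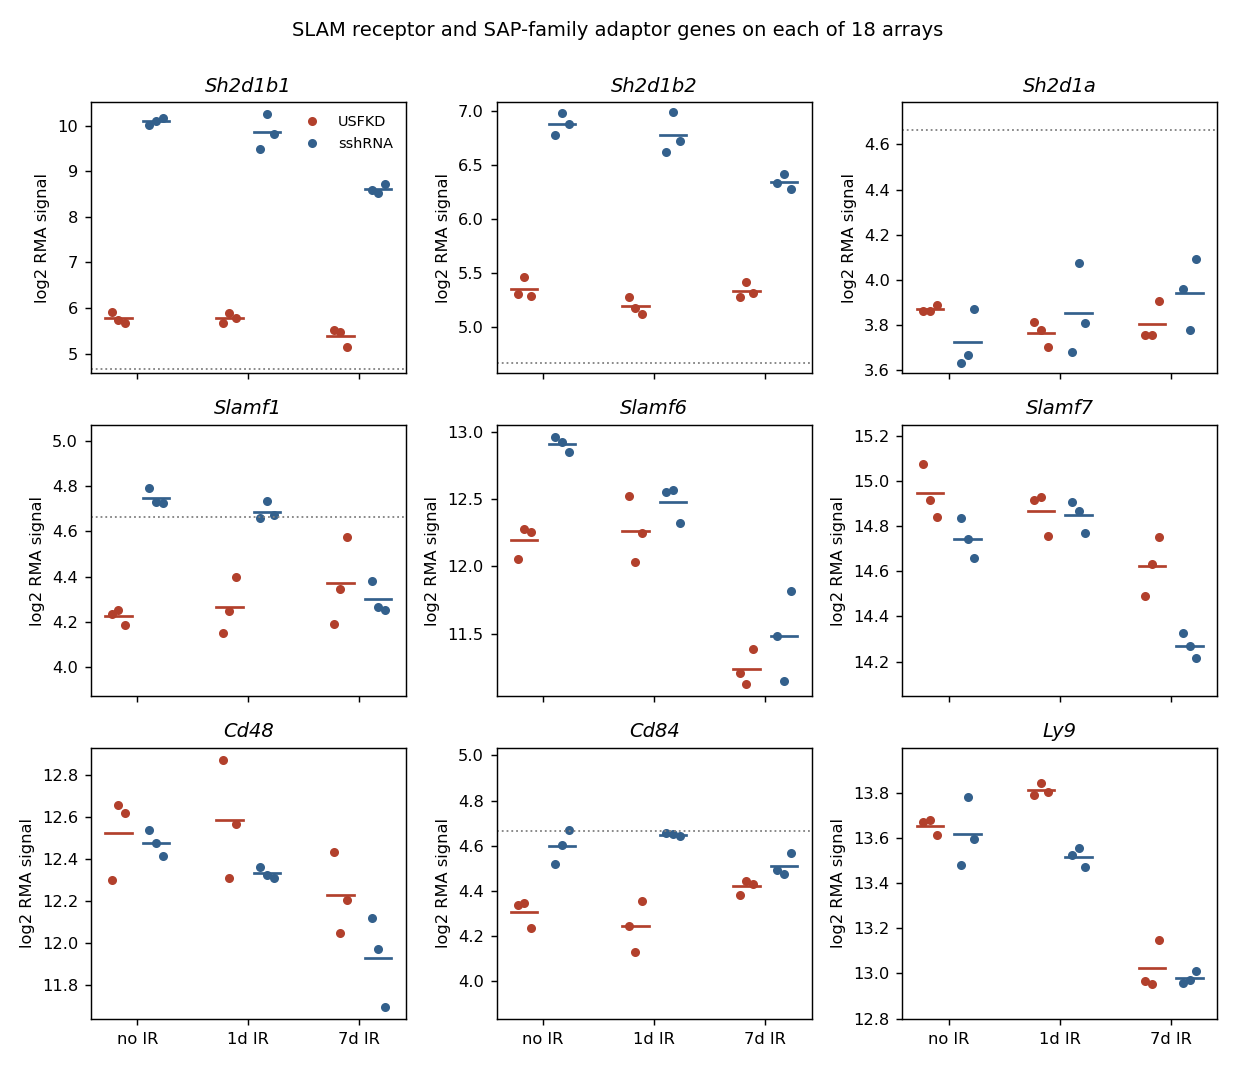
Log2 RMA signal of the 9 genes on each of 18 arrays, by recovery time, with USFKD left of sshRNA at each time; points are arrays, short lines are group means, the dotted line is the dim limit of 4.66, and each panel has its own scale. *Sh2d1b1* and *Sh2d1b2* separate the lines at all 3 times. The means of *Sh2d1b1*, *Slamf6*, *Slamf7*, *Cd48* and *Ly9* are lowest at 7 days in both lines.

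*Sh2d1b1* carried the widest range of the family. It read 5.91, 5.75 and 5.67 in USFKD no IR, against 10.01, 10.11 and 10.17 in sshRNA no IR. At 1 day it read 5.67, 5.89 and 5.78 in USFKD, against 9.48, 10.26 and 9.82 in sshRNA. At 7 days it read 5.52, 5.48 and 5.14 in USFKD, against 8.60, 8.53 and 8.72 in sshRNA. All 9 USFKD arrays lay below all 9 sshRNA arrays, and all 9 USFKD arrays stayed above the dim limit. The difference was -4.32 ± 0.16 (SE) without irradiation, which is 19.97-fold lower in USFKD if the deposited values are taken as log2 throughout, then -4.07 ± 0.16 at 1 day and -3.23 ± 0.16 at 7 days, or 9.41-fold lower.

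*Sh2d1b2*, the neighbouring paralog, had the same order. It read 5.30, 5.46 and 5.28 in USFKD no IR, against 6.78, 6.98 and 6.88 in sshRNA no IR. At 1 day the values were 5.28, 5.18 and 5.12 in USFKD, against 6.62, 6.99 and 6.73 in sshRNA. At 7 days they were 5.28, 5.42 and 5.31 in USFKD, against 6.33, 6.42 and 6.28 in sshRNA. Again no USFKD array reached the lowest sshRNA array. The differences were -1.53 ± 0.10 without irradiation, -1.59 ± 0.10 at 1 day and -1.01 ± 0.10 at 7 days, or 2.89-fold, 3.01-fold and 2.01-fold lower in USFKD. Over the 18 arrays the 2 genes had a Pearson r of 0.987, a description over arrays that share the line difference.

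The promoters of both adaptor genes are shown because the genes moved together and because the sequences are near copies of each other. RefSeq promoters of build GRCm38.p6, 250 bases before to 50 after the start, were found for 7 of the 9 genes. *Sh2d1b1* lies at chr1:170277068-170277367 and *Sh2d1b2* at chr1:170232621-170232920, both on the plus strand. Capitals mark bases that are identical in a local alignment of the pair.
Sh2d1b1: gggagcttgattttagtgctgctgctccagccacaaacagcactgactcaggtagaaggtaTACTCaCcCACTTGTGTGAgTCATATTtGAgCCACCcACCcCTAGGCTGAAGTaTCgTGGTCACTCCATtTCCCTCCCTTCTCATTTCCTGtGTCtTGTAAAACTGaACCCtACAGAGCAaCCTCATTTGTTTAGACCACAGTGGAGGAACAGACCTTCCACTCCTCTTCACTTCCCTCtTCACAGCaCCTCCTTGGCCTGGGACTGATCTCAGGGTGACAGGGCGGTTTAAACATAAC
Sh2d1b2: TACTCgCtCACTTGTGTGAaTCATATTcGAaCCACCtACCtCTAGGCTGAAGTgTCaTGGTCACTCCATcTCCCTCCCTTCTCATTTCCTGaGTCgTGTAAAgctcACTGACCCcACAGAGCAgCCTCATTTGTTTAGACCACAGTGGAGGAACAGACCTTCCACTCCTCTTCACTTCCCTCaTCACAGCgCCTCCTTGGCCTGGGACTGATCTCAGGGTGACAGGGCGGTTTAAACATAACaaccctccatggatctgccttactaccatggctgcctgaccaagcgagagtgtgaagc
The alignment covered 238 base pairs, of which 222 were identical (93.3%), with 16 mismatches and 2 gaps. Both promoters held the ETS core GGAAGT, searched on both strands, in the stretch that reads cttcacttccctc on the strand shown. This core is present in 23.8% of 32851 promoters of the same length and in 3 of the 7 found here, the third being *Cd48*. The palindromic E-box CACGTG, the core to which USF proteins bind, is present in 7.15% of the 32851 promoters and in 0 of the 7, which says only that these letters are not in these windows. Sequence shared by the paralogs may extend into the transcripts. The probes of the 2 clusters were not analysed here, so signal from one paralog on the cluster of the other cannot be told apart from its own.

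*Sh2d1a*, which encodes SAP, was dim in every group. It read 3.86, 3.86 and 3.89 in USFKD no IR, against 3.63, 3.67 and 3.87 in sshRNA no IR. The lowest and highest of all 18 values were 3.63 and 4.09. It passed the test in none of the 9 comparisons, and a signal this low does not show whether its transcript differed.

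Of the receptors, *Slamf6*, *Slamf7*, *Cd48* and *Ly9* lay well above the dim limit, over 11 on every array, and *Slamf1* and *Cd84* stayed under 4.8. *Slamf6*, a self-binding receptor on T, B and natural killer cells, was the receptor that passed both the adjusted p and the fold threshold between unirradiated lines. It read 12.06, 12.28 and 12.26 in USFKD no IR, against 12.96, 12.92 and 12.85 in sshRNA no IR, with no overlap. It was lower in USFKD by -0.71 ± 0.15 (SE), which is 1.64-fold (limma adjusted p = 0.00875). At 1 day it read 12.52, 12.03 and 12.25 in USFKD, against 12.55, 12.57 and 12.32 in sshRNA, and at 7 days 11.21, 11.13 and 11.38 in USFKD, against 11.48, 11.15 and 11.82 in sshRNA. The lines overlapped at both times, and the differences of -0.21 ± 0.15 and -0.24 ± 0.15 missed the threshold (limma adjusted p = 0.658 and 0.362). The difference between the lines in the change over time missed it too, at 0.50 ± 0.22 for 1 day (limma adjusted p = 0.753) and 0.47 ± 0.22 for 7 days (limma adjusted p = 0.293).

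*Slamf7*, a self-binding receptor abundant on plasma cells, was far above the dim limit in both lines. It read 15.08, 14.92 and 14.84 in USFKD no IR, against 14.83, 14.74 and 14.66 in sshRNA no IR. At 1 day the values were 14.92, 14.93 and 14.76 in USFKD, against 14.91, 14.87 and 14.77 in sshRNA. At 7 days they were 14.49, 14.63 and 14.75 in USFKD, against 14.33, 14.27 and 14.22 in sshRNA. The lines overlapped at 1 day. They did not overlap at 7 days, where USFKD was higher by 0.35 ± 0.09 (limma adjusted p = 0.0183), which is 1.28-fold and under the fold threshold. Without irradiation the difference was 0.20 ± 0.09 (limma adjusted p = 0.265). At none of the 3 times was the mean of this receptor, which uses EAT2, lower in USFKD.

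*Cd48* and *Ly9* were not called between the lines at any time. *Cd48* read 12.30, 12.66 and 12.62 in USFKD no IR, against 12.54, 12.48 and 12.42 in sshRNA no IR. At 1 day it read 12.87, 12.31 and 12.57 in USFKD, against 12.36, 12.32 and 12.31 in sshRNA. Its line difference missed the threshold at all 3 times, with a 95% interval of -0.27 to 0.36 on the log2 scale without irradiation. *Ly9*, which encodes the self-binding receptor SLAMF3, read 13.67, 13.68 and 13.61 in USFKD no IR, against 13.48, 13.78 and 13.59 in sshRNA no IR. At 1 day it read 13.79, 13.84 and 13.80 in USFKD, against 13.52, 13.56 and 13.47 in sshRNA. This small separation of 0.30 ± 0.08 passed the adjusted p (limma adjusted p = 0.0450) but amounted to 1.23-fold.

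*Slamf1*, a self-binding receptor of activated lymphocytes, lay around the dim limit. It read 4.24, 4.25 and 4.19 in USFKD no IR, against 4.79, 4.73 and 4.73 in sshRNA no IR. At 1 day it averaged 4.27 ± 0.12 in USFKD and 4.69 ± 0.04 in sshRNA (SD, n = 3 each), with no overlap. At 7 days it read 4.19, 4.35 and 4.57 in USFKD, against 4.38, 4.27 and 4.25 in sshRNA. Its group means passed the dim limit only in sshRNA no IR and sshRNA 1d IR. The unirradiated lines did not overlap, with a difference of -0.53 ± 0.09 (limma adjusted p = 0.00190), which is 1.44-fold. *Cd84*, a self-binding receptor that acts between T and B cells, was dim in every group. It read 4.34, 4.35 and 4.24 in USFKD no IR, against 4.52, 4.60 and 4.67 in sshRNA no IR. It differed by -0.29 ± 0.07 (limma adjusted p = 0.0212), or 1.22-fold. Neither gene reached the fold threshold at any time in the comparison of lines.

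**Figure D2:**
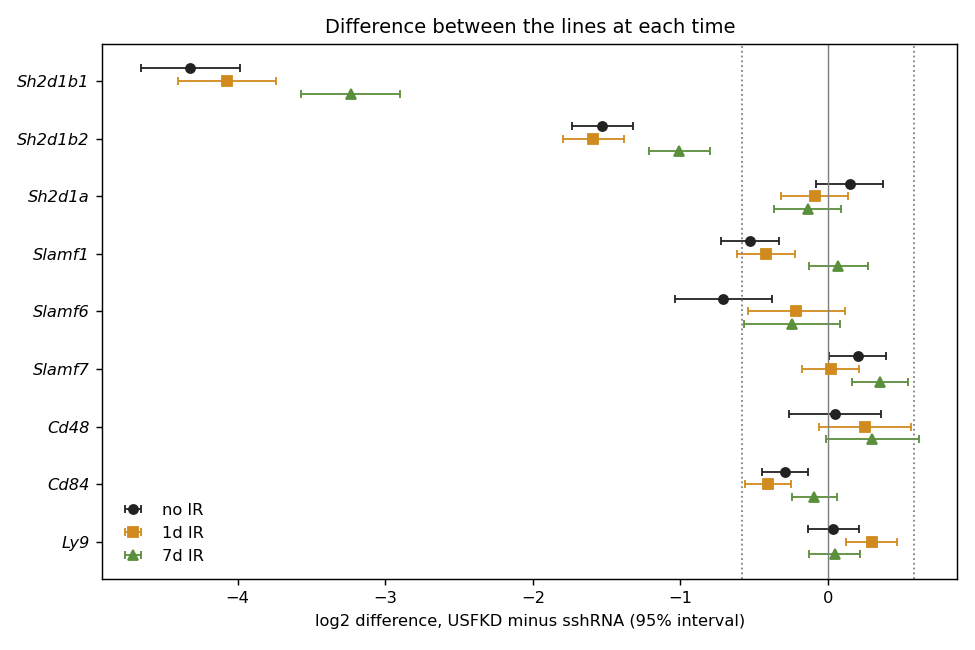
Log2 difference, USFKD minus sshRNA, for each gene without irradiation (circles), at 1 day (squares) and at 7 days (triangles), with 95% intervals from limma; dotted lines mark a fold of 1.5. *Sh2d1b1* lies at -4.32, -4.07 and -3.23, *Sh2d1b2* at -1.53, -1.59 and -1.01, and the other 7 genes within 1.64-fold of no difference.

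Counted over the family, 3 of 9 genes were lower and 0 higher in USFKD between the unirradiated lines. Of all 30638 clusters with 1 gene symbol, 6.84% passed in either direction in this comparison. Without *Sh2d1b1* and *Sh2d1b2*, which set the choice of the family, *Slamf6* was the remaining call. At 1 day 2 genes were lower, beside 5.43% of all clusters called, and at 7 days 2 were lower, beside 8.91%. In both cases these were the *Sh2d1b* pair. Nothing is read from these counts, since the family was selected on this comparison. The median difference over the 9 genes was -0.29 without irradiation, against 0.02 over the clusters with 1 symbol. This median is the value of the dim gene *Cd84* in a set that includes the selected pair, so nothing is read from it either.

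The effect of irradiation was asked within each line. At 1 day, 0 of 9 genes passed limma's test in USFKD, where 0% of clusters passed, and 0 had an unadjusted p under 0.05. In sshRNA 0 of 9 passed, where 1.75% of clusters passed, and 1 gene had an unadjusted p under 0.05. This was *Slamf6*, at -0.43 ± 0.15 (limma adjusted p = 0.167). No alternative setting gave a member call at 1 day within either line.

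At 7 days 2 of the receptors, *Slamf6* and *Ly9*, were called lower in both lines. *Slamf6* read 11.21, 11.13 and 11.38 in USFKD 7d IR, against 12.06, 12.28 and 12.26 in USFKD no IR, a change of -0.96 ± 0.15, or 1.94-fold lower (limma adjusted p = 5.60e-04). In sshRNA it read 11.48, 11.15 and 11.82 at 7 days, against 12.96, 12.92 and 12.85 without irradiation, a change of -1.42 ± 0.15, or 2.69-fold lower (limma adjusted p = 8.30e-06). Neither line overlapped with its own untreated arrays.

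*Ly9* fell by nearly the same amount in both lines. It read 12.97, 12.95 and 13.15 in USFKD 7d IR, against 13.67, 13.68 and 13.61 in USFKD no IR, a change of -0.63 ± 0.08, or 1.55-fold lower (limma adjusted p = 1.04e-04). In sshRNA it read 12.96, 12.97 and 13.01 at 7 days, against 13.48, 13.78 and 13.59 without irradiation, a change of -0.64 ± 0.08, or 1.56-fold lower (limma adjusted p = 3.11e-05). The difference between these changes was 0.01 ± 0.11. The *Ly9* fold in sshRNA was 1.47 without sshRNA no IR replicate 2, just under the threshold.

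The changes of the *Sh2d1b* pair at 7 days are given as a description, with no test. They share the untreated arrays with the line difference by which the family was chosen. *Sh2d1b1* changed in sshRNA by -1.48 ± 0.16 on the log2 scale, which is 2.79-fold lower. In USFKD its change was -0.40 ± 0.16, and -0.59 when each array was centred on its bright clusters. *Sh2d1b2* changed by -0.54 ± 0.10 in sshRNA, or 1.45-fold lower, and by -0.01 ± 0.10 in USFKD.

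In sshRNA, the receptors *Slamf1*, *Slamf7* and *Cd48* passed the adjusted p under the fold threshold. *Cd48* read 12.12, 11.97 and 11.70 in sshRNA 7d IR, against 12.54, 12.48 and 12.42 in sshRNA no IR, a change of -0.55 ± 0.15, or 1.46-fold lower (limma adjusted p = 0.0105). In USFKD it read 12.43, 12.05 and 12.21 at 7 days, against 12.30, 12.66 and 12.62 without irradiation, a change of -0.30 ± 0.15 (limma adjusted p = 0.193). *Slamf7* changed by -0.47 ± 0.09 in sshRNA (limma adjusted p = 0.00101) and by -0.32 ± 0.09 in USFKD (limma adjusted p = 0.0221), both under 1.5-fold.

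**Figure D3:**
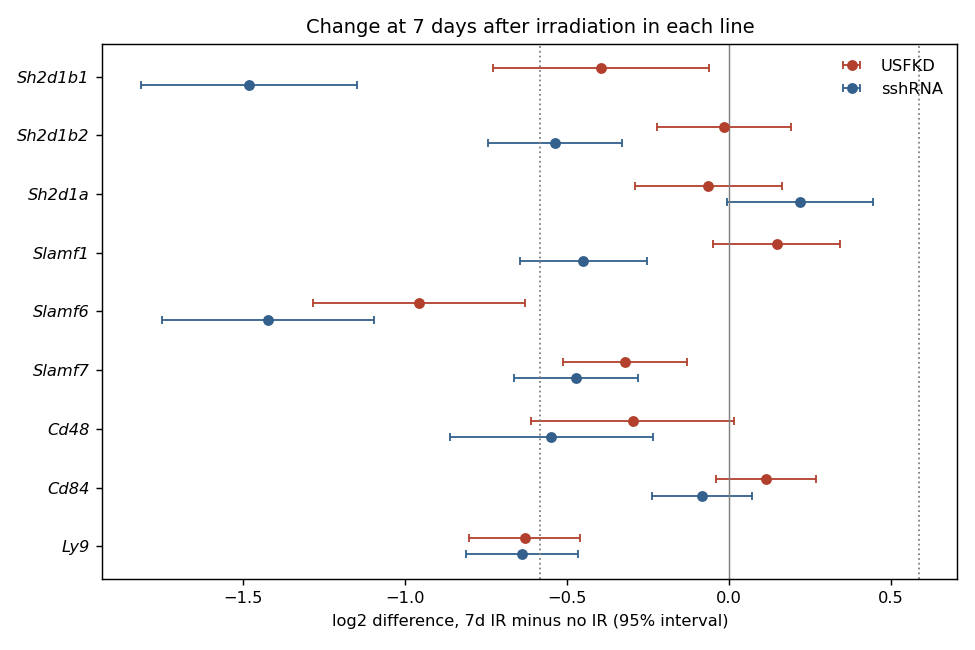
Log2 difference, 7d IR minus no IR, in USFKD (red, upper point of each pair) and sshRNA (blue, lower point), with 95% intervals from limma; dotted lines mark a fold of 1.5. *Slamf6* and *Ly9* lie past the threshold in both lines, and *Sh2d1b1* in sshRNA alone, at -1.48 against -0.40 in USFKD.

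Over the family, 2 of 9 genes were called lower at 7 days in USFKD, beside 10.2% of all clusters called in either direction. In sshRNA 3 of 9 were called lower, beside 17.7%. These include *Sh2d1b1*, whose untreated sshRNA arrays entered the choice of the family, so nothing is read from that count. No member was called higher in either line. The median change of the 9 genes was -0.30 in USFKD and -0.54 in sshRNA, against 0.06 in USFKD and 0.12 in sshRNA over all clusters with 1 symbol. The sshRNA median is the value of *Sh2d1b2*, a gene of the pair that set the choice of the family. Bright clusters as a whole shifted by 0.19 in USFKD and 0.17 in sshRNA at 7 days. They had also shifted at 1 day, when no member was called. Their array medians were then 6.654 to 6.776 in USFKD and 6.654 to 6.73 in sshRNA. Without irradiation they were 6.535 to 6.577 in USFKD and 6.525 to 6.55 in sshRNA. Centring each array on the bright clusters raised the sshRNA count at 7 days to 7 of 9, all lower. The 7 day arrays also held the higher spike signals given above, and the part of these in the falls was not tested.

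The change at 7 days was then set side by side in the lines. That of *Sh2d1b1* differed by 1.09 ± 0.22 (SE), lying nearer to 0 in USFKD. This value is a description with no test, because it shares the untreated arrays with the line difference by which the family was chosen. A fall in USFKD as large as that in sshRNA would also have taken *Sh2d1b1* to 4.30, below the dim limit, so it might not have been measured in full. Leaving out single arrays gave a difference of 1.02 to 1.21. Whether it crossed the thresholds of the fit depended on single arrays, and nothing is read from a crossing. The change of the paralog *Sh2d1b2* differed by 0.52 ± 0.14 (SE), also nearer to 0 in USFKD and also given with no test. For *Sh2d1b2* an equal fall would have given 4.81, above the dim limit. The part of the dim limit in these differences was not tested.

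The change of *Slamf1* differed by 0.60 ± 0.13 (SE), also given with no test, with a change of 0.15 ± 0.09 in USFKD and of -0.45 ± 0.09 in sshRNA. Its USFKD arrays all lay under the dim limit, and a fall as large as that in sshRNA would have given 3.77. At such levels a fall might not be measured in full. The difference no longer crossed the thresholds on leaving out any of 10 of the arrays in turn. *Sh2d1b1* and *Slamf1* were the 2 of 9 genes past the thresholds of the fit, beside 3.12% of all clusters, and nothing is read from this count. At 1 day 0 of 9 genes differed between the lines in their change by limma's test, beside 0% of clusters, and 2 had an unadjusted p under 0.05.

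The genes whose pattern over the 18 arrays was most like that of *Sh2d1b1*, among 15542 genes above the dim limit, were *Pls3* with a Pearson r of 0.995, *Ogfrl1* with 0.991 and *Gnptab* with 0.989. *Sh2d1b2* was most like *Pls3* (0.992), *Bpnt1* (0.988) and *Sh2d1b1* (0.987). *Slamf6* was most like *Mthfd1l* (0.975), *Fam168b* (0.970) and *Hmgn2-ps1* (0.970). These values describe arrays that share a line and a time. Within the family, *Ly9* followed *Slamf7* (0.803) and *Slamf6* (0.786), and showed no such likeness to *Sh2d1b1* (0.001). *Cd84*, which was dim, followed *Sh2d1b1* (0.847) and *Sh2d1b2* (0.881). *Slamf1*, around the dim limit, did so less closely (0.760 and 0.776).

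Genes that act with the SLAM receptors were taken from lists that hold kinases, phosphatases, effectors and the remaining receptors. The remaining receptors *Cd244a*, *Slamf8* and *Slamf9* were dim in unirradiated cells of both lines, and 0 of 3 passed the test there. At 7 days *Slamf9* was called lower in USFKD, by -0.76 ± 0.11 (SE, limma adjusted p = 4.81e-04). It then averaged 3.96 in USFKD and 4.72 in sshRNA, close to the dim limit. The share of all clusters called was 6.84% between the unirradiated lines and 8.91% between the lines at 7 days. Of 5 kinases measured, 2 were called between the unirradiated lines, beside that 6.84%. *Fyn*, the kinase that SAP binds, was lower and *Blk*, a B cell kinase of the SRC family, was higher. *Fyn* averaged 11.75 ± 0.18 in USFKD no IR and 12.85 ± 0.05 in sshRNA no IR (SD, n = 3 each), a difference of -1.10 ± 0.11 (SE, limma adjusted p = 1.03e-05). *Blk* averaged 8.90 ± 0.56 in USFKD no IR and 6.66 ± 0.19 in sshRNA no IR, a difference of 2.24 ± 0.24 (limma adjusted p = 2.78e-05). Both calls were also made at 1 and 7 days.

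Of 4 phosphatases, 0 were called between the unirradiated lines by limma's test, although *Ptprc*, which encodes the phosphatase CD45, passed the adjusted p at 0.50 ± 0.09 (limma adjusted p = 0.00235). Of 14 effectors, 1 was called, *Cd2*, a receptor that CD48 binds in mice. The share of all clusters with 1 symbol called in this comparison was 6.84%. *Cd2* averaged 4.27 ± 0.14 in USFKD no IR, under the dim limit, and 4.95 ± 0.10 in sshRNA no IR, a difference of -0.68 ± 0.11 (limma adjusted p = 0.00116). The phospholipase *Plcg2*, which belongs to the enzyme family coupled to EAT2, averaged 12.40 ± 0.13 in USFKD no IR and 12.36 ± 0.05 in sshRNA no IR (0.04 ± 0.19, limma adjusted p = 0.964).

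At 7 days further genes of these lists were called. In USFKD 2 of 5 kinases, 1 of 4 phosphatases and 3 of 14 effectors were lower and none of them higher, beside 10.2% of all clusters called in either direction. In sshRNA 1 of 5 kinases, 3 of 4 phosphatases and 4 of 14 effectors were lower, and 1 effector, *Bcl10*, was higher, beside 17.7% of all clusters called. *Inpp5d*, which encodes the phosphatase SHIP1, changed by -1.24 ± 0.17 in USFKD (limma adjusted p = 2.09e-04) and by -2.09 ± 0.17 in sshRNA (limma adjusted p = 1.07e-06). *Plcg2* changed by -1.13 ± 0.19 in USFKD (limma adjusted p = 8.41e-04) and by -1.28 ± 0.19 in sshRNA (limma adjusted p = 1.40e-04). *Csk*, *Vav1* and *Vav2* were the other genes lower in both lines.

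**Figure D4:**
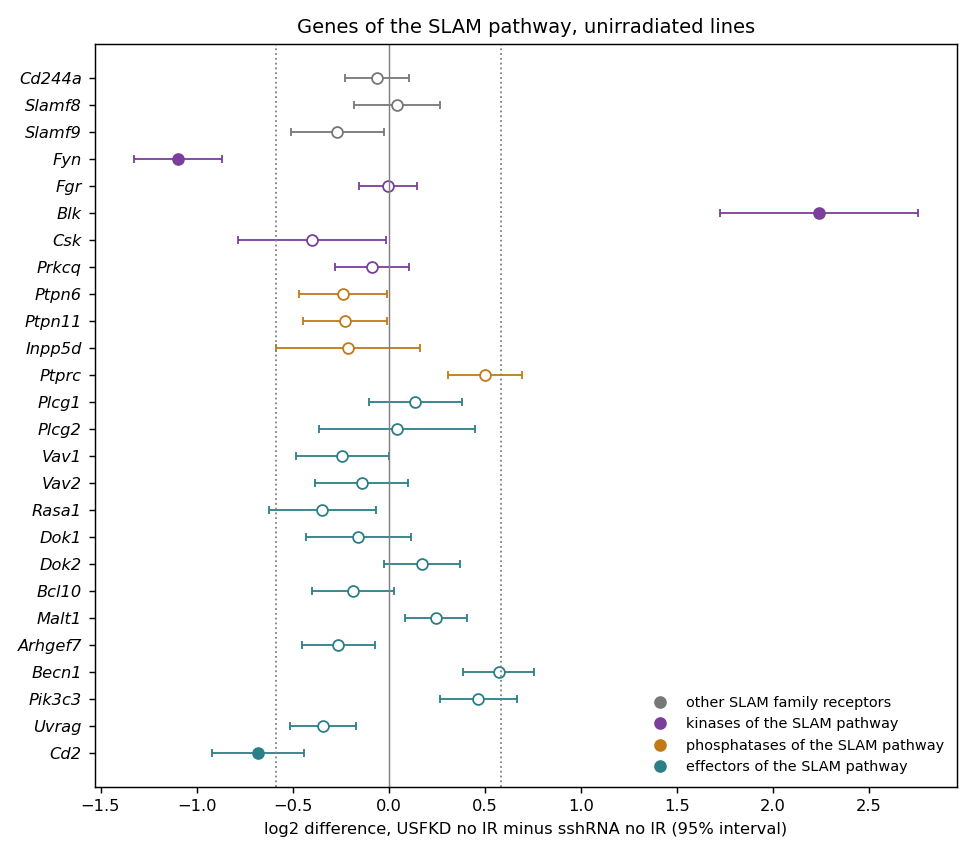
Log2 difference, USFKD no IR minus sshRNA no IR, for 26 measured genes of the SLAM pathway lists, with 95% intervals from limma; filled points passed the adjusted p and fold thresholds, and dotted lines mark a fold of 1.5. *Blk* lies at 2.24, *Fyn* at -1.10 and *Cd2* at -0.68, and the other 23 genes were not called.

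EAT2 and several of the receptors are also known from natural killer and T cells, so markers of other cell types were read in the same arrays. All 6 measured B cell markers lay above the dim limit in every group. Of 9 natural killer cell markers, 0 lay above it in the USFKD groups and 1 in the sshRNA groups, *Prf1*, which encodes perforin. *Prf1* averaged 4.56 ± 0.11 in USFKD no IR and 6.75 ± 0.09 in sshRNA no IR, a difference of -2.19 ± 0.14 (limma adjusted p = 1.78e-07). *Ncr1* and the other defining natural killer cell markers were dim in both lines. The T cell list had 1 to 3 of 7 genes above the limit, the myeloid list 1 of 8, and the plasma cell list 5 of 6 in every group. Between the unirradiated lines, 1 of 6 B cell markers, 0 of 7 T cell markers, 1 of 8 myeloid markers and 1 of 6 plasma cell markers were called. The share over all clusters with 1 symbol was 6.84%. In USFKD the B cell gene *Cd79a* was lower (-0.96 ± 0.22, limma adjusted p = 0.0132), while the myeloid marker *Cd68* (1.52 ± 0.20, limma adjusted p = 1.95e-04) and the plasma cell gene *Irf4* (0.89 ± 0.16, limma adjusted p = 0.00233) were higher. The other myeloid and plasma cell markers were not called and went both ways. The median difference was 0.02 over the myeloid list and 0.16 over the plasma cell list. The other B cell markers were not called and went both ways, with *Cd79b* at -0.36, *Ms4a1* at -0.01, *Cd22* at 0.20, *Pax5* at 0.39 and *Ptprc* at 0.50. The median of the 6 was 0.10. At 7 days 2 of the 6 were called higher in USFKD, *Ms4a1* and *Pax5*, and 1 lower, *Cd79a*, beside 8.91% of all clusters. The part of these differences in the adaptor signal was not tested.

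The receptors and the *Sh2d1b* pair all lie on chromosome 1, and *Usf1* is among the 5 nearest measured protein-coding genes on a side of *Ly9*, while *Sh2d1a* lies on chromosome X. Of 31 such neighbours of the family, 2 were called lower and 0 higher in unirradiated USFKD cells. *Uhmk1*, a kinase gene beside the *Sh2d1b* pair, was lower by -0.74 ± 0.11 (limma adjusted p = 5.04e-04), and *Tma7-ps*, within the receptor cluster, by -0.80 ± 0.15 (limma adjusted p = 0.00272). The other 9 of 10 neighbours of the *Sh2d1b* pair were not called. Of 1070 protein-coding genes on chromosome 1 with their own cluster, 8.50% were called. The 6.84% called over all clusters with 1 symbol is not limited to protein-coding genes, so the 2 shares cannot show an excess on chromosome 1.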

How the data were processed

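Gene expression was measured in USFKD and sshRNA cells on 18 Affymetrix Mouse Transcriptome 1.0 arrays, 3 in each of 6 groups. The deposited values are log2 signals that the authors computed with RMA (background adjustment, quantile normalization and log2 transformation); the submitters' notes also name Affymetrix Expression Console, and no versions of either are given in the sources used here. In 1339 of 72688 rows a value exceeds 16, so the path from scan to value is not fully known and differences are given on the deposited scale. The RNA input is stated differently by the labels and the methods. For arrays, their number limits the precision.

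Clusters with 1 symbol (30638 of 65956) were matched to RefSeq symbols of GRCm38.p6 (22596 by Entrez ID, 7710 by symbol, 330 by synonym, 2 unmatched), which gave 30098 genes; 33142 clusters have no symbol and 2176 several. A mean for each group was fitted over all 72688 rows, controls included, with 12 residual degrees of freedom and Benjamini-Hochberg adjustment within each of 9 contrasts (limma 3.58.1, R 4.3.3). The fit was tested on simulated data. Promoters were aligned with biopython 1.88. The probes of a cluster and their genome build were not analysed here.

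The text names all 9 members, *Usf1* and *Usf2*, up to 3 called genes per list with the lowest adjusted p between unirradiated lines, the 3 genes most correlated with *Sh2d1b1* and with each other member above the dim limit whose group means span over 1 log2 unit, and up to 4 called neighbours. The dim limit was a mean of 4.66. *Ptprc*, *Plcg2*, *Inpp5d*, *Bcl10*, *Csk*, *Vav1*, *Vav2* and *Ncr1* were named after their values were seen. Members and lists were chosen with earlier results of these data known. Some genes of the lists are not reported here.

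Alternatives were a filter on dim rows, rows with 1 symbol only, cyclic loess, centring of each array on its bright clusters, ordinary variances, an intensity trend, array weights, only the arrays compared, a gene's mean over its clusters, the replicate number as a block, and each array left out. Same-numbered arrays deviated together, with a correlation of deviations over 0.1 in every pair, only in sshRNA 1d IR against sshRNA no IR (0.33, 0.17 and 0.17). The labels give only a shared number.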

Additional observations from a re-analysis of the deposited data

Results flagged for a closer look

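The change of *Sh2d1b1* at 7 days differed between USFKD and sshRNA by 1.09 ± 0.22 on the log2 scale (SE), with a lower signal than in the untreated arrays in 3 of 3 arrays of each line. It is listed by a rule on the thresholds of the fit across all rows, and nothing is read from its crossing them. It is given with no p, since it shares the untreated arrays on which the family was chosen, and an equal fall in USFKD would have given 4.30, under the dim limit of 4.66.

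The same value for *Slamf1* was 0.60 ± 0.13, with a lower signal at 7 days in 3 of 3 sshRNA arrays, and it is listed for the same reason. Its means in USFKD were 4.37 at 7 days and 4.22 without irradiation, both under the dim limit, and an equal fall would have given 3.77.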

How the results depend on the processing

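The count of members called was within 1.5 times its value under every alternative for 7 of the 9 comparisons. Between the lines, the calls counted were the *Sh2d1b* pair, joined by *Slamf6* without irradiation. The family was chosen by this pair, so nothing is read from the steadiness of those counts. For the changes at 1 day and the difference between them the count was 0 throughout. In sshRNA 7d IR against sshRNA no IR it was 7 in place of 3 with cyclic loess and 7 with centring on bright clusters, which took *Sh2d1b2*, *Slamf1*, *Slamf7* and *Cd48* over the fold threshold (1.52-fold for *Slamf7* and 1.53-fold for *Cd48* with cyclic loess); leaving out single arrays gave 2 to 4. The count for the difference between the lines in the 7 day change was 1 in place of 2 with centring, with array weights and with only the arrays compared, in each case through the loss of *Slamf1*, and 0 to 2 with single arrays left out. *Slamf1* was then at 0.58 with centring, 0.58 with array weights and 0.60 with only the arrays compared. With the replicate number as a block the counts were 3, 2 and 2 between the lines, 0 and 2 in USFKD, 0 and 3 in sshRNA, and 0 and 2 for the differences between them, and the block changed no call of a member. Of 792 values under settings other than leaving out an array, 780 kept their call, 3 lost it and 9 gained it. Of 1458 with an array left out, 1442 kept it, 14 lost it and 2 gained it. No called value changed sign. Each gene had 1 cluster, so the mean over its clusters could not change a call. Leaving out an array outside a comparison leaves the difference as it was and can move only its spread and p. The kept calls include such values, so their number overstates how far the calls were tried. The signal of the dim genes *Sh2d1a*, *Cd84* and *Slamf1* over background limits what the arrays can show for them.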
